A study of Mus musculus with 6 samples.

Results

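NRF2, encoded by Nfe2l2, and 9 genes of the antioxidant enzymes and the cystine transporter it is known to control or work beside were examined in resting bone marrow-derived macrophages (BMDMs), primary macrophages grown from mouse bone marrow. The 10 genes were chosen by symbol (Nfe2l2, Nqo1, Gclc, Gclm, Slc7a11, Txnrd1, Prdx1, Srxn1, Gpx1 and Cat) by a rule that uses no measured value, although the set was put together with earlier results of these data known, and all 10 were among the 55291 genes of the table. BMDMs came from 3 WT mice and 3 PYK2 KO (PYK2-/-) mice, all of strain C57BL/6, and RNA was taken after 7 days in medium with L929-conditioned DMEM as the source of M-CSF, with no other treatment. The knockout was present in every cell of the mouse, not only in macrophages, and each library was 1 mouse; the ages of these mice are not given in the sources used here. The WT libraries carry the numbers 1, 5 and 6 and the PYK2 KO libraries the numbers 2, 3 and 4, and the comparison asks which transcripts differ when the tyrosine kinase PYK2 is absent.

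In unstressed cells the adaptor KEAP1 holds NRF2 and hands it to a CUL3 ubiquitin ligase for degradation. Oxidants and electrophiles modify KEAP1, so NRF2 escapes, pairs with a small MAF protein and binds antioxidant response elements, short DNA motifs near genes for glutathione synthesis, thioredoxin reduction and quinone removal. NRF2 is thus set mostly at the level of the protein, which gene counts do not measure. Macrophages use these enzymes to limit the peroxides that they make when activated.

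The core of the antioxidant response element, TGACNNNGC on either strand, was searched in promoter windows of RefSeq (GRCm38.p6) that run from 250 bases before to 50 bases after a gene's start. A window was found for 9 of the 10 genes (all except Gclc), and 5 of these 9 held the core: Nfe2l2, Gclm, Txnrd1, Prdx1 and Srxn1. Among all 27025 genes with a window, 14.0% held it, and 17.1% of the 7752 tested genes with a window did. The 5 matches are shown because they hold the core letters of the element through which NRF2 is known to act. Each is read 5′ to 3′ on the strand that holds the core, with the core in capitals.
Nfe2l2: cagcccaccTGACTCCGCcatgccccg
Gclm: cgtgagagtTGACGGTGCgcccgggag
Txnrd1: gtgtcagaaTGACAAAGCaaaaatcca
Prdx1: tacgggggaTGACTCAGCgctttccct
Srxn1: gtctcactcTGACCTAGCtgcccactg
All 5 lie on the minus strand, Nfe2l2 at chr2:75704886-75704912, Gclm at chr3:122245414-122245440, Txnrd1 at chr10:82859105-82859131, Prdx1 at chr4:116685457-116685483 and Srxn1 at chr2:152105543-152105569. Counted from the RefSeq start of the window, which can differ from the GENCODE gene ends given with each gene, the core lay from base 29 of the transcript onward in Srxn1 (start 152105524), and before the start in the other genes. Txnrd1 has 3 windows, and the match lies in 1 of them, before an internal start at 82859206 that is not the first base of the annotated gene. That of Prdx1 also contains TGACTCA, the letters of an AP-1 site, so the motifs overlap there. A match says only that the letters are present in this window.

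The libraries held between 2857097 and 3917207 counts of transcript 3′ ends. After removal of genes with low counts, 9815 genes were compared by the quasi-likelihood test of edgeR, with p-values adjusted after Benjamini and Hochberg, and 25 passed a threshold of 0.05. Ptk2b, which encodes PYK2, had between 568 and 737 counts in the WT libraries and between 64 and 71 in the PYK2 KO libraries (log2 fold change -3.15, standard error 0.10), in accord with the labels. All 9 macrophage markers, among them Csf1r and Adgre1, passed the filter and 0 were called. Their summed levels were 29292 to 30030 CPM (counts per 1000000 counts of the TMM-normalized library) in WT and 30474 to 31455 CPM in the knockout. Lyz2 made up most of each sum, with means of 24068 CPM in WT and 25389 CPM in the knockout. The median log2 fold change of the 9 was -0.02. Neutrophil markers summed to 129 to 181 CPM in WT and 133 to 232 CPM in PYK2 KO libraries, with 0 of 6 tested called and 2 higher at an unadjusted p-value under 0.05, S100a9 (44.9 against 82.3 CPM, log2 fold change 0.85) and Mpo (2.10 against 4.88 CPM, log2 fold change 1.19), beside 6.03% of all tested genes at that threshold. The other 4 did not share this, with log2 fold changes of 0.10 for S100a8, 0.19 for Ngp, -0.26 for Camp and -0.09 for Ltf. B cell markers summed to at most 23.2 CPM with 5 of 6 at 0 counts, and T cell markers to at most 9.24 CPM with 3 of 6 at 0. Dendritic (5 of 6 at 0), erythroid (6 of 7 at 0), stromal (3 of 6 at 0) and mast cell and basophil (3 of 5 at 0) markers summed to at most 1.40 CPM in any library. Of the erythroid markers, Hbb-bs was among those at 0 counts, and Klf1 had 1 to 3 counts per library.

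None of the 10 antioxidant genes differed between genotypes at an adjusted p-value under 0.05 (the same edgeR test, adjusted over all genes), against 0.255% of all tested genes, and 0 had an unadjusted p-value under 0.05, against 6.03% of all tested genes. The count at an unadjusted p-value under 0.05 was not stable: Gclc and Nfe2l2 came under it without WT library 6 (unadjusted p = 0.0277 and 0.0145, edgeR), Gclc without PYK2 KO library 4 (0.0338), without scaling beyond library totals (0.0437) and with the first residual principal component as a covariate (0.0418), and Nfe2l2 without a filter on low counts (0.0393). DESeq2 and limma-voom called 0 of the 10 genes as well. The log2 fold changes of PYK2 KO against WT ran from -0.07 for Gpx1 to 0.21 for Gclc, with 7 above 0 and 3 below and a median of 0.03, where the median of all tested genes was 0.0019. All 10 genes passed the filter on low counts. In 7 of them every library had at least 181 counts, and for these the 95% intervals of the fold lay within 0.840 to 1.38, so a larger difference than that fell outside each of these intervals. For Nqo1, Prdx1 and Slc7a11, with 7 to 98 counts per library, the intervals reached from 0.631 to 1.84 and the depth limits what can be said. Fewer cells of a type and less RNA per cell cannot be told apart in such bulk libraries, and these p-values rest on 3 mice per genotype.

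Nfe2l2 itself is annotated on the minus strand of chromosome 2, from 75675513 to 75704641 (GENCODE M21, GRCm38, as for the other positions). Its level was 197, 268 and 312 CPM in WT libraries 1, 5 and 6, and 273, 303 and 310.0 CPM in PYK2 KO libraries 2, 3 and 4. WT library 1 was the lowest of all 6 and WT library 6 the highest, so the whole range of the knockouts lay inside that of the WT mice. The means were 259 ± 58.0 CPM in WT against 295 ± 19.9 CPM in the knockout (SD over n = 3 mice per genotype), which is 0.19 higher on the log2 scale with a standard error of 0.13 (adjusted p = 0.913, edgeR). Without WT library 1 the log2 fold change was 0.03, and without WT library 6 it was 0.35, with an adjusted p of 0.646 at the smallest among the 6 fits (edgeR) that left out a library.

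**Figure D1:**
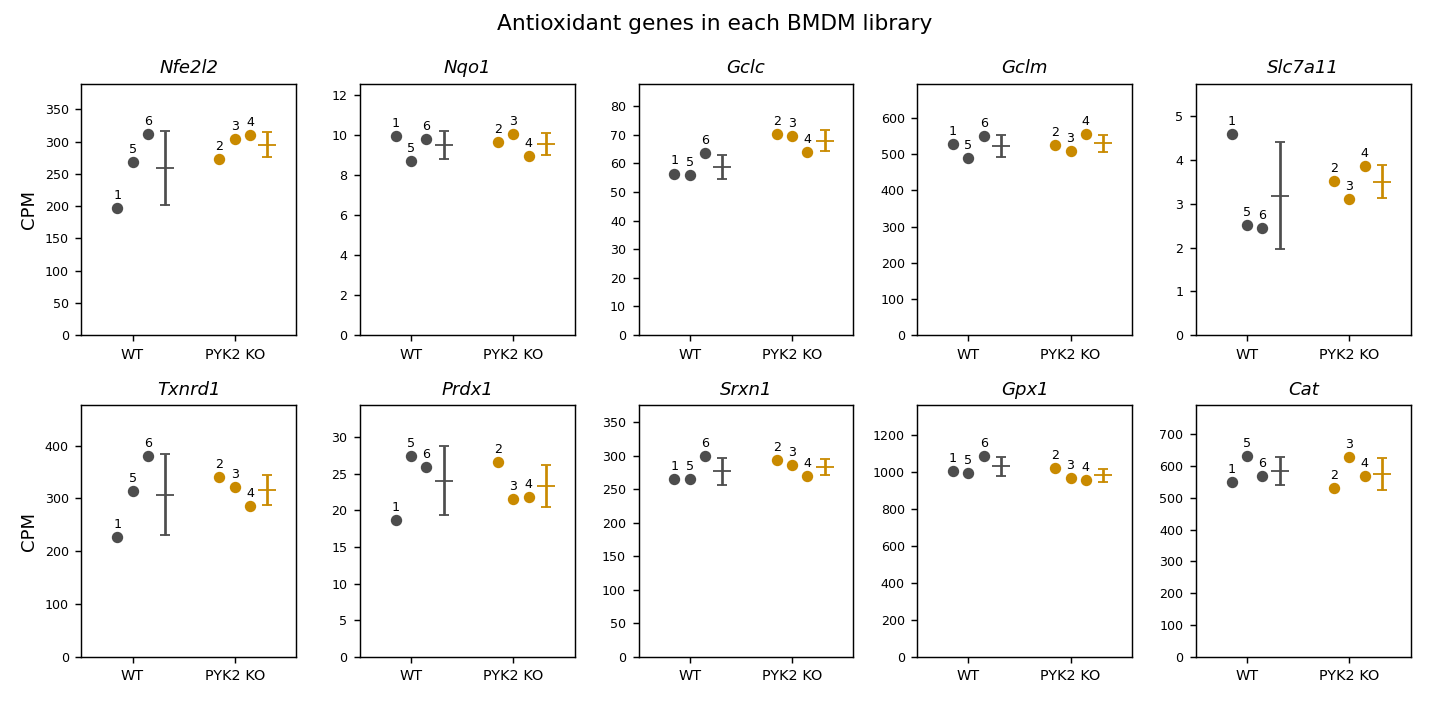
Level of each of the 10 antioxidant genes in CPM (vertical axes start at 0 and differ between panels) in the WT (grey) and PYK2 KO (gold) BMDM libraries, 1 point per mouse with its library number; the bar beside the points is the mean ± SD of 3 mice. Only in Gclc do all 3 PYK2 KO points lie above all 3 WT points, and WT library 1 is the lowest point for Nfe2l2, Txnrd1 and Prdx1.

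Of the genes for glutathione synthesis, Gclc was the one whose genotypes did not overlap. Gclc encodes the catalytic subunit of glutamate-cysteine ligase, the rate-limiting enzyme of glutathione synthesis, and lies on chromosome 9 from 77754535 to 77794485 on the plus strand. Its level was 56.4, 56.0 and 63.4 CPM in WT libraries 1, 5 and 6, and 70.3, 69.6 and 63.8 CPM in PYK2 KO libraries 2, 3 and 4. The gap between the highest WT and the lowest PYK2 KO library was thus 63.4 against 63.8 CPM, and the genotypes of 10.2% of all tested genes did not overlap either, 5.17% with the knockouts higher. The means were 58.6 ± 4.18 CPM in WT against 67.9 ± 3.57 CPM in the knockout (SD over n = 3 mice per genotype), a fold of 1.16 with a 95% interval of 0.999 to 1.35. The log2 fold change of 0.21 (standard error 0.10) had an unadjusted p of 0.0511 and an adjusted p of 0.829 in the edgeR test, and it stayed between 0.18 and 0.27 in the 6 fits that left out a library, with an adjusted p of at least 0.667 (edgeR).

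Gclm encodes the modifier subunit of the same ligase, and its gene lies on chromosome 3 from 122245557 to 122270732 on the plus strand. Gclm was at 528, 489 and 550.3 CPM in WT and 526, 509.5 and 556 CPM in PYK2 KO libraries. The genotypes overlapped throughout, and the highest of the 6 libraries was only 1.14 times the lowest. The log2 fold change was 0.02 (95% interval -0.15 to 0.20). An antisense gene, Gm17494, overlaps the 3′ end of Gclm and held 1 count in all.

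Slc7a11 encodes the transporter that brings in cystine, the source of the cysteine in glutathione, and lies on chromosome 3 from 49892526 to 50443614. It had 18, 9 and 7 counts in WT libraries 1, 5 and 6, and 11, 9 and 13 counts in PYK2 KO libraries 2, 3 and 4. WT library 1 was the highest of the 6 at 4.597 CPM, the opposite end from its place for Nfe2l2, and the genotypes overlapped. At a mean of about 11.2 counts, counting error alone gives a coefficient of variation of 29.9%, near the 38.2% seen among the WT libraries and above the 10.8% among the PYK2 KO libraries. The log2 fold change of 0.11 had a 95% interval of -0.67 to 0.88, and differences inside it cannot be resolved here. It was 0.49 without WT library 1 and -0.05 without WT library 5.

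In the 3 genes of the thioredoxin branch the genotypes overlapped. Txnrd1 encodes thioredoxin reductase 1, the selenium enzyme that passes electrons from NADPH to thioredoxin, and lies on chromosome 10 from 82833951 to 82897712. Txnrd1 was at 227, 315 and 381 CPM in WT libraries 1, 5 and 6, and at 340.1, 322 and 286 CPM in PYK2 KO libraries 2, 3 and 4. As for Nfe2l2, WT library 1 was the lowest and WT library 6 the highest, a 1.68-fold range within WT BMDMs, and the PYK2 KO values lay between them. The log2 fold change of 0.04 (standard error 0.14) turned to -0.14 without WT library 1 and reached 0.23 without WT library 6.

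Prdx1 encodes peroxiredoxin 1, a peroxidase that thioredoxin recharges, and lies on chromosome 4 from 116685544 to 116700822. Prdx1 was at 18.6, 27.4 and 25.9 CPM in WT and 26.6, 21.5 and 21.8 CPM in PYK2 KO libraries, from 62 to 98 counts per library. WT library 1 was again the lowest, and the genotypes overlapped (log2 fold change -0.03, 95% interval -0.40 to 0.33). The last 300 bases of its transcripts matched 2 other annotated genes, Gm21399 and Gm7204, at 95% identity or more over at least 100 bases. Reads may thus be shared or lost, and the Prdx1 level is uncertain. Those 2 genes held 12 counts in all, which sets no bound on the reads lost. No such copy was found for the other 9 genes.

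Srxn1 encodes sulfiredoxin, which restores over-oxidized peroxiredoxins, and lies on chromosome 2 from 152105516 to 152111376. It was at 265, 265 and 300.03 CPM in WT libraries 1, 5 and 6 and 294, 287 and 270.3 CPM in PYK2 KO libraries 2, 3 and 4, with both ends of the range in WT BMDMs (log2 fold change 0.04, 95% interval -0.14 to 0.22). With a library left out the Srxn1 value ran from 0.0052 (without WT library 5) to 0.0975 (without WT library 6). Nqo1, on chromosome 8 from 107388225 to 107403206, encodes the enzyme that reduces quinones without forming radicals and is widely read as an NRF2 target. Nqo1 had 39, 31 and 28 counts in WT and 30, 29 and 30 counts in PYK2 KO libraries, or means of 9.48 ± 0.702 against 9.54 ± 0.557 CPM (SD over n = 3 mice per genotype). The genotypes overlapped, and the log2 fold change was 0.01 with a 95% interval from -0.44 to 0.45.

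Gpx1 and Cat remove hydrogen peroxide, with glutathione in the case of glutathione peroxidase 1 and directly in the case of the peroxisomal enzyme catalase. Gpx1, on chromosome 9 from 108338903 to 108340343, was at 1008, 998 and 1089 CPM in WT libraries 1, 5 and 6 and at 1024, 966 and 959 CPM in PYK2 KO libraries 2, 3 and 4. PYK2 KO library 2 lay among the WT values, so the genotypes overlapped, and the log2 fold change was -0.07 (standard error 0.08, 95% interval -0.23 to 0.09), or -0.03 without WT library 6. Cat, on chromosome 2 from 103453849 to 103485160, was at 551, 633 and 569 CPM in WT and 531, 629 and 567 CPM in PYK2 KO libraries. In each genotype 1 library stood above the other 2, WT library 5 and PYK2 KO library 3, and the log2 fold change was -0.02 (95% interval -0.21 to 0.17).

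**Figure D2:**
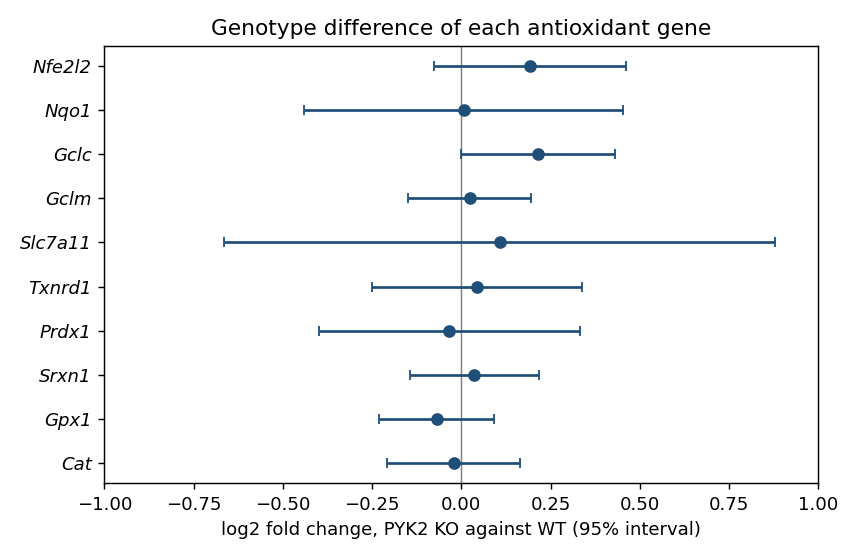
Log2 fold change of PYK2 KO against WT BMDMs for each antioxidant gene (horizontal axis), with its 95% interval from the edgeR fit as the bar. Every interval includes 0, that of Gclc only just (-0.0011 to 0.43), and that of Slc7a11 is the widest (-0.67 to 0.88).

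The antioxidant genes differed in how much they varied among mice of the same genotype. On the log2 scale the SD within genotypes was 0.32 for Slc7a11, the gene with the fewest counts, 0.28 for Txnrd1, 0.25 for Nfe2l2 and 0.24 for Prdx1, at or above that of 85.7%, 80.7%, 74.4% and 72.5% of tested genes. It was 0.06 for Gpx1, 0.08 for Gclm, 0.08 for Srxn1 and 0.09 for Gclc, larger than in at most 15.0% of tested genes. In 9 of the 10 genes the SD in CPM was larger among the WT mice than among the PYK2 KO mice, Cat being the exception. The same held for 4908 of all 9815 tested genes, and the difference between these shares was not tested. Against each gene's mean over the 6 libraries, WT library 1 was lower by 0.47 for Nfe2l2, 0.44 for Txnrd1 and 0.32 for Prdx1 on the log2 scale, while it was 0.42 higher for Slc7a11. Averaged over the 10 genes, the deviations of the libraries ran only from -0.10 in WT library 1 to 0.06 in WT library 6, and the 10 genes together took 0.286% to 0.3298% of a library's counts. WT library 1 was also the most deeply counted library (3917207 counts). On the first residual principal component of all tested genes it lay at 0.538, with WT library 5 at -0.086 and WT library 6 at -0.452. The part of depth or of this component in the low values of WT library 1 was not tested.

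**Figure D3:**
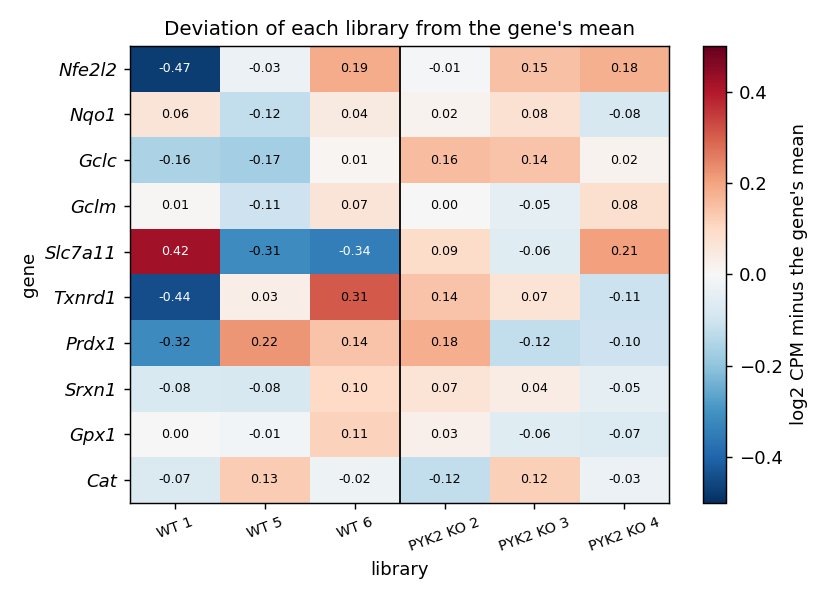
Log2 CPM of each antioxidant gene (rows) in each library (columns, WT left of the line and PYK2 KO right of it) minus the gene's mean over the 6 libraries, as colour and number. The strongest colours stand in WT library 1, low for Nfe2l2 (-0.47) and Txnrd1 (-0.44) and high for Slc7a11 (0.42), and no column is of 1 colour throughout.

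By the root mean square difference of centred log2 CPM over the 6 libraries, the genes nearest to Nfe2l2 among 9814 were Arhgap26 (0.06), Foxj3 (0.06), Rdh13 (0.06), Reps1 (0.06) and Hdac2 (0.07). They share with Nfe2l2 a low value in WT library 1, from -0.38 for Foxj3 to -0.61 for Hdac2. Of the other antioxidant genes Txnrd1 came closest, at rank 275 with a difference of 0.15, and then Gclc at rank 875 with 0.18. Slc7a11 was the farthest, at rank 9055 with 0.45, and the rest lay between ranks 1293 and 3720. Flat genes come close to each other by this measure, and it is a description over 6 libraries only.

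Of 53 other genes of the NRF2 system and the antioxidant pathways, listed by role, 52 passed the filter (Sod3 had 0 counts in every library), and 1 was called, Nnt, which was lower, against 0.143% of all tested genes called lower. Their median log2 fold change was -0.02, with 18 above 0 and 34 below. Among all tested genes the median was 0.0019, with 4961 above 0 and 4854 below, and the difference was not tested. For 45 of the 52 pathway genes the log2 fold change was within 0.2 of 0, a share not counted over all genes. The genotypes did not overlap in 6 of the 52, beside 10.2% of all tested genes.

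The partners and regulators of NRF2 gave 0 calls among 9 tested genes. Keap1, the sensor that holds NRF2, averaged 124 ± 4.94 CPM in WT against 125 ± 9.21 CPM in the knockout (SD over n = 3 mice per genotype), a log2 fold change of 0.01. Bach1, a repressor that competes for the same DNA elements, averaged 9.74 ± 0.253 CPM in WT against 10.96 ± 1.66 CPM in the knockout (SD over n = 3 mice per genotype), a log2 fold change of 0.16 (adjusted p = 0.964, edgeR) that was 0.04 without PYK2 KO library 3 and 0.24 without PYK2 KO library 2. The small MAF partners Maff (9 to 14 counts per library) and Mafk had log2 fold changes of 0.61 (95% interval -0.11 to 1.33) and -0.41 (95% interval -0.83 to 0.02). Mafg, the most abundant of the small MAF genes listed (298 to 403 counts per library), had a log2 fold change of -0.10.

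Among 12 glutathione genes 0 were called, and the lowest log2 fold change was that of Chac1, which encodes an enzyme that breaks glutathione down. Chac1 was at 19.4, 21.8 and 18.2 CPM in WT libraries 1, 5 and 6, and at 8.34, 19.4 and 6.86 CPM in PYK2 KO libraries 2, 3 and 4. PYK2 KO libraries 2 and 4 lay far below every WT library, while library 3 was at the WT level. The difference was -0.81 on the log2 scale with a standard error of 0.28 (unadjusted p = 0.0104, adjusted p = 0.596, edgeR), and single libraries moved it. Without PYK2 KO library 3 it was -1.39 (unadjusted p = 2.25e-05, adjusted p = 0.0151, edgeR). Without PYK2 KO library 2 it was -0.63 (unadjusted p = 0.0514, adjusted p = 0.731, edgeR). It was -0.53 without PYK2 KO library 4 (unadjusted p = 0.065, edgeR), and not called after adjustment. Mgst2, a microsomal glutathione transferase, had a log2 fold change of 0.33 (95% interval -0.07 to 0.73). Gsr, glutathione reductase, averaged 129 ± 21.5 CPM in WT against 128 ± 5.70 CPM in the knockout (SD over n = 3 mice per genotype), a log2 fold change of -0.01.

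The 11 thioredoxin and peroxiredoxin genes gave 0 calls, with log2 fold changes between -0.17 and 0.15. Txn1, thioredoxin itself, averaged 708 ± 57.2 CPM in WT against 764 ± 53.0 CPM in the knockout (SD over n = 3 mice per genotype), a log2 fold change of 0.11 that was 0.05 without WT library 5 or PYK2 KO library 4. Sod2, the mitochondrial superoxide dismutase, averaged 248 ± 19.6 CPM in WT against 266 ± 9.53 CPM in the knockout (SD over n = 3 mice per genotype), a log2 fold change of 0.10 that was 0.04 without WT library 1 and 0.16 without WT library 6. Sod1, the cytosolic superoxide dismutase, averaged 597 ± 10.3 CPM in WT against 556 ± 31.8 CPM in the knockout (SD over n = 3 mice per genotype), a log2 fold change of -0.10 (adjusted p = 0.935, edgeR). Every PYK2 KO library lay below every WT library, but the gap was only 588.9 against 590.2 CPM. The same order held for 498 of all 9815 tested genes. Of the 10 genes of heme, iron and detoxification 0 were called, and Hmox1, the inducible heme oxygenase that is a common readout of NRF2 and BACH1, averaged 570 ± 23.9 CPM in WT against 588 ± 51.7 CPM in the knockout (SD over n = 3 mice per genotype), a log2 fold change of 0.05.

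Of the 8 genes that supply NADPH, the reducing power on which glutathione reductase and thioredoxin reductase draw, Nnt was lower and the other 7 had log2 fold changes from -0.25 for Me1 to 0.09 for Tkt. Nnt encodes the transhydrogenase of the inner mitochondrial membrane that makes NADPH in the matrix. Nnt was at 45.7, 49.5 and 50.1 CPM in WT libraries 1, 5 and 6, and at 20.9, 22.9 and 25.3 CPM in PYK2 KO libraries 2, 3 and 4. Every PYK2 KO library lay below every WT library by a wide margin, and the level was 0.477 of that in WT (95% interval 0.394 to 0.577). On the log2 scale this was -1.07 with a standard error of 0.13 (adjusted p = 0.000536, edgeR), and -1.15 to -1.002 with a library left out. Nnt was put on the list with its value in these data already known, so its presence there is no evidence about the pathway. The substrain and litters of the WT and PYK2 KO mice are not given in the sources used here. The part of genetic background in the Nnt difference was not tested. The genes of the cytosolic pentose phosphate route gave no call, G6pdx with a log2 fold change of -0.0036 and Pgd with 0.02.

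**Figure D4:**
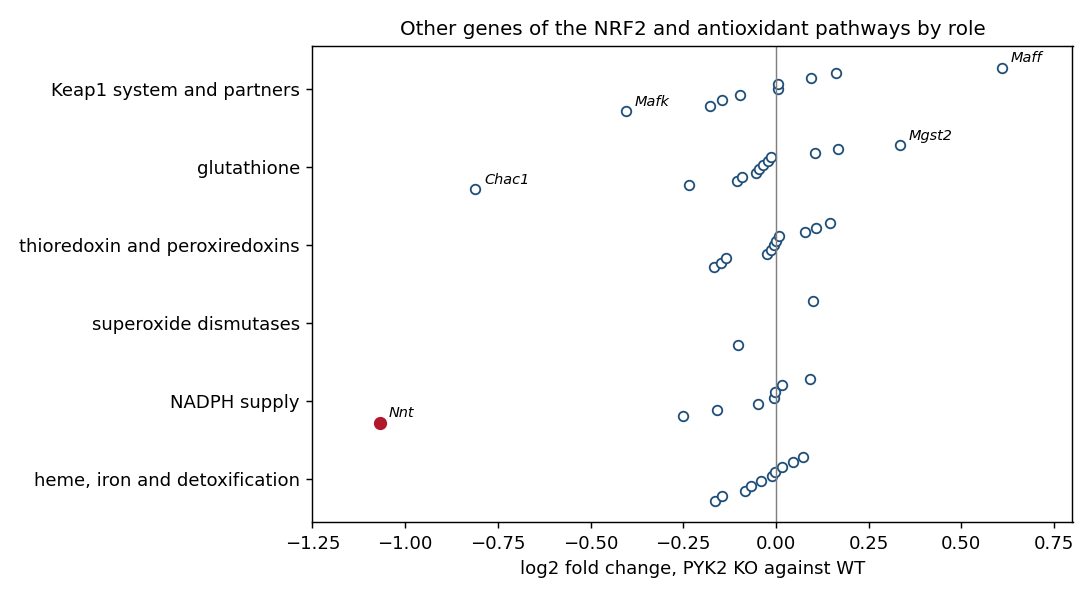
Log2 fold change of PYK2 KO against WT BMDMs (horizontal axis) for the 52 tested genes of the wider pathways, 1 point per gene, grouped by role and spread vertically within a group for legibility. The filled red point is Nnt (-1.07), the one gene called at an adjusted p under 0.05, and open points are genes not called.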

How the data were processed

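The data are RNA-seq libraries of BMDMs from 6 mice, 3 per genotype. The authors deposited a table of raw counts (whole numbers, not normalized) by gene symbol, made with the UTAP pipeline from bulk MARS-seq libraries (3′ ends of polyadenylated RNA). The submitters' processing notes name cutadapt, STAR and mm10. Whether molecular identifiers were collapsed is not given in the sources used here, so statements on counting error cover that error only. Column names gave the mouse of each column. Library totals were 2857097 to 3917207 counts.

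Genes were filtered (filterByExpr), scaled (TMM) and tested on genotype alone with the quasi-likelihood F test of edgeR 4.0.16 in R 4.3.3, with Benjamini-Hochberg adjustment over 9815 genes and a threshold of 0.05. Standard errors are the size of the log2 fold change over the root of F. Centred log2 CPM used a prior count of 2. The fits were checked on simulated data. Alternatives were DESeq2 1.42.0, limma 3.58.1 (voom), other scalings and filters, a covariate and leaving out each library. Genes named were the 10 antioxidant genes, Ptk2b, Keap1, Bach1, Hmox1, Txn1, Gsr, Sod2, pathway genes at an unadjusted p under 0.05, marker genes, and the 5 genes nearest to Nfe2l2. G6pdx, Pgd, Me1, Tkt, Sod1, Sod3, Maff, Mafk, Mafg and Mgst2 were named after their values were seen. The 10 genes were picked by symbol and not by value, but they, the lists and the tests were chosen with earlier results of these data known. Shared 3′ ends were sought with BLAST+ 2.17.0 in GENCODE M21 transcripts.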

Additional observations from a re-analysis of the deposited data

How the results depend on the processing

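The count of antioxidant genes called was 0 under every alternative and in each fit without 1 library. Of 129 values of these 10 genes under the alternatives, 113 kept their direction and 16 turned it, in 6 genes, with 0 passing the threshold. Without a filter Nqo1 was at -1.1e-05 and Keap1 at -0.00042. With a library left out, log2 fold changes ran from -0.0559 to 0.0521 for Nqo1, -0.0896 to 0.0395 for Cat, -0.0231 to 0.0625 for Gclm, -0.199 to 0.0830 for Prdx1, -0.0517 to 0.494 for Slc7a11, -0.137 to 0.225 for Txnrd1, -0.103 to 0.132 for Gsr, -0.0288 to 0.0923 for Hmox1 and -0.0492 to 0.0580 for Keap1. Slc7a11 was not tested with at least 10 counts asked in every library. All genes called were 25, against 159 without a filter, 62 with the first residual principal component as a covariate (which, taken from these counts, understates the error), and 14 to 34 with a library left out (14 without PYK2 KO library 4, 15 without WT library 5 or PYK2 KO library 2). Pathway genes called were 2 without a filter, where Chac1 was added (adjusted p = 0.0112, edgeR), and 1 to 2 with a library left out. The causes were not tested. The genotypes share no library number, and no pairing of the mice is given in the sources used here. No paired analysis was therefore run.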
